A study of Arabidopsis thaliana with 4 samples.

Results

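The serine carboxypeptidase-like (SCPL) family of Arabidopsis thaliana was examined in expanded leaves of plants grown in short days. The genes were those that the platform annotation paired with a probe set of exactly 1 gene and whose symbol was SCPL followed by a number. This gave 29 genes out of the 13356 genes with such a probe set, and each of the 29 had only 1 such probe set. Symbols are written in capitals here, although the annotation gives many of them in lower case. The reference gene table lists 51 SCPL genes. Of the other genes, 3 lay on 2 probe sets that the annotation pairs with several genes, and 19 were not named by it, so these are not analysed here.

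Single-colour oligonucleotide arrays were compared between jaw-D, a mutant that overexpresses the microRNA miR319a, and Columbia, the reference accession, with 2 arrays of each. Both groups are described as expanded leaves from short days, and the labels give no age, plant number or transgene. The jaw-D allele is known as a dominant activation-tagged line, in which inserted enhancers raise transcription of the native microRNA gene. miR319 directs the cutting of mRNAs for a set of TCP transcription factors that restrain leaf growth, and jaw-D plants have crinkled leaves. The labels name expanded leaves and no cell type, so fewer cells of a type and less RNA per cell cannot be told apart.

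Serine carboxypeptidases are secreted or vacuolar hydrolases that remove the last amino acid of a peptide chain with a serine, aspartate and histidine triad. Some relatives in plants have become acyltransferases that use sugar esters as donors. SNG1, a family member, makes the leaf sunscreen sinapoylmalate, and BRS1, another member, affects brassinosteroid signalling when overexpressed. In rice, the serine carboxypeptidase gene GS5 affects grain size. SNG1 and BRS1 were not among the genes named here, and neither were the TCP targets of miR319 or MIR319A, so the overexpression itself was not checked on these arrays.

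Signals are linear probe-set intensities, as deposited, and differences are of log2(signal + 16), jaw-D minus Columbia, which understates the change of dim probe sets. A gene was called when its limma p, adjusted by Benjamini-Hochberg over all 22746 probe sets, was under 0.05. By that rule 0.189% of all probe sets were called, 0.154% lower and 0.0352% higher in jaw-D. Signals under 16 made up 22.3% and 21.7% of probe sets on the jaw-D arrays, against 17.8% and 18.4% on the Columbia arrays. Of 12 leaf photosynthesis markers 2 were measured, RCA and LHCB4.1, and their summed signal was 21258 and 17984 in jaw-D against 20554 and 23859 in Columbia. The 3 measured of 7 root markers summed to 72.5 and 70.2 in jaw-D against 92.0 and 79.2 in Columbia, and the 1 measured of 4 trichome markers, TRY, read 44.5 and 45.6 in jaw-D against 76.1 and 51.3 in Columbia. Neither the leaf, root nor trichome markers passed the test, and their part in the SCPL results was not tested. The flower, seed and vascular markers had no probe set paired with exactly 1 gene and are not analysed here.

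SCPL46 (AT2G33530) was the 1 SCPL gene of 29 that passed the test, and it fell (background 0.154% of all probe sets lower in jaw-D). No role of SCPL46 is given in the files. Its signal was 163.8 and 161.0 on the jaw-D arrays, against 528.8 and 501.8 on the Columbia arrays. The replicates of each genotype lay close together and the genotypes were far apart. The mean was 162 ± 1.98 in jaw-D and 515 ± 19.1 in Columbia (SD, n = 2 arrays each). The log2 difference was -1.57 with an SE of 0.14 and a 95% interval from -1.93 to -1.22. SCPL46 was thus 2.98-fold lower in jaw-D on the log2(signal + 16) scale, with an adjusted p of 0.0343 by limma. The difference ran from -1.61 to -1.54 when any 1 array was left out. The call of SCPL46 was then lost, as was every other call over all probe sets, in fits that hold 1 array of a genotype. Of the 6 protein-coding genes within 3 places of SCPL46 in the reference gene order, 2 were measured, with log2 differences of -0.03 and 0.43 and a smallest adjusted p of 0.644. Both had low signals. AT2G33520 read 23.4 and 35.9 in jaw-D, against 25.3 and 35.3 in Columbia. BUBR1 read 5.3 and 26.3 in jaw-D, against 5.7 and 6.8 in Columbia.

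**Figure D1:**
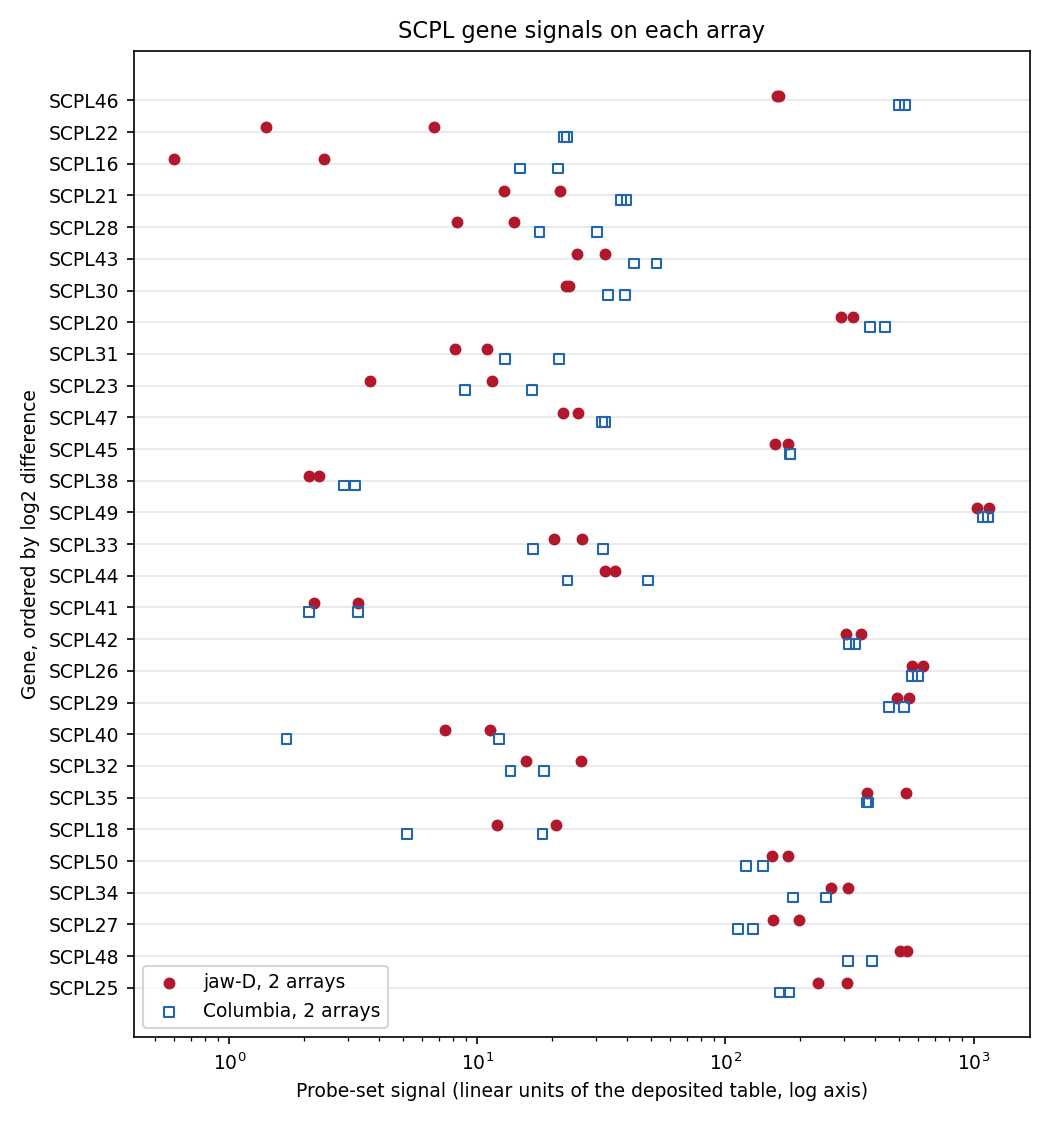
Probe-set signal of the 29 SCPL genes (log axis, linear units of the deposited table), with the 2 jaw-D arrays as filled circles and the 2 Columbia arrays as open squares, ordered by log2 difference from lowest to highest. SCPL46 reads 163.8 and 161.0 in jaw-D against 528.8 and 501.8 in Columbia, while SCPL49, SCPL42, SCPL26 and SCPL29 overlap between genotypes.

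The other 28 genes did not pass, with adjusted p from 0.143 to 0.9997. Of all 29, 16 had a negative and 13 a positive difference, with a median of -0.02, beside -0.04 over all probe sets. The genotypes were apart, with no overlap of arrays, and jaw-D lower in 12 of the 29 genes (41.4%), beside 26.5% of all probe sets. They were apart and jaw-D higher in 5 genes (17.2%), beside 17.5% of all probe sets. At an unadjusted limma p under 0.05 there were 10 genes, 7 lower and 3 higher, and the shares over all probe sets were 8.47% and 4.53%. The median size of the difference was 0.29 over the 29 genes and 0.18 over all probe sets. Replicates differed from each other by a median of 0.19 over these genes within jaw-D and 0.19 within Columbia, on the same log2 scale.

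The counts were also made separately for genes of bright and of dim probe sets, divided at 77.5, the median over all probe sets of the mean signal of the 4 arrays. A brighter probe set does not mean a more abundant transcript, since probes differ, but it is measured further above the unknown background. There were 13 bright and 16 dim SCPL genes. Among the bright ones 3 were lower on both jaw-D arrays (background 20.9% of bright probe sets) and 5 were higher (background 23.6%), with a median difference of 0.09, beside 0.01 over bright probe sets. Among the dim ones 9 were lower on both jaw-D arrays (background 32.2% of dim probe sets) and 0 were higher (background 11.3%), with a median difference of -0.28, beside -0.11 over dim probe sets. Limma called 0 of the 16 dim genes, and 6 had an unadjusted p under 0.05, all of them lower in jaw-D. The share of all probe sets lower at that threshold was 8.47%, and the share of dim probe sets was not counted.

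**Figure D2:**
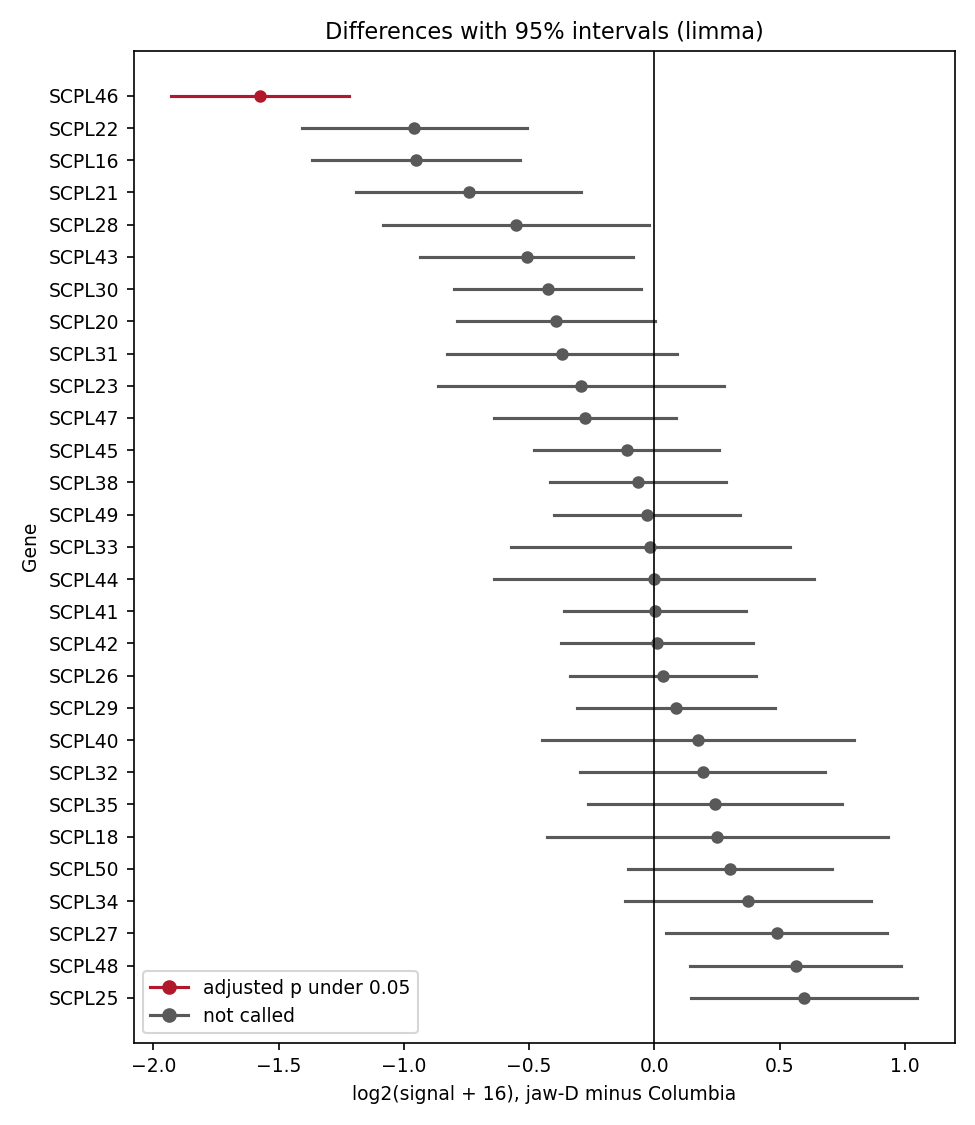
Log2 difference of each SCPL gene, jaw-D minus Columbia, on the log2(signal + 16) scale, with 95% intervals from limma as lines. SCPL46, at -1.57, is the 1 called gene, and the intervals of 10 genes in all, from SCPL46 to SCPL30 at the negative end and from SCPL27 to SCPL25 at the positive end, leave out 0.

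Among the bright genes, SCPL25, SCPL48 and SCPL27 had the highest differences. SCPL25 (AT3G02110) read 235.0 and 309.7 in jaw-D, against 166.1 and 180.0 in Columbia. Its log2 difference was 0.60 (SE 0.18, 95% interval 0.15 to 1.05, adjusted p = 0.288 by limma). The jaw-D arrays both lay above the Columbia arrays but also differed from each other more than the Columbia arrays did.

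SCPL48 (AT3G45010) read 539.8 and 505.8 in jaw-D, against 388.4 and 312.3 in Columbia, a log2 difference of 0.56 (SE 0.17, 95% interval 0.14 to 0.98, adjusted p = 0.285). Here the Columbia arrays were the more spread pair, and there was no overlap. SCPL48 stands beside SCPL47 and SCPL49 in number, and SCPL49 is the gene the reference table also calls CPY, after carboxypeptidase Y, the vacuolar enzyme of yeast. None of these 3 passed the test, and only SCPL48 was higher on both jaw-D arrays. SCPL49 was bright and overlapped between genotypes, at 1154.6 and 1036.4 in jaw-D against 1091.1 and 1142.6 in Columbia, a log2 difference of -0.03 with a 95% interval from -0.40 to 0.34. SCPL47 was dim, at 25.5 and 22.1 in jaw-D against 31.8 and 32.6 in Columbia, with a difference of -0.28.

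SCPL27 (AT3G07990) read 155.5 and 197.4 in jaw-D, against 129.3 and 112.0 in Columbia, a log2 difference of 0.49 (SE 0.18, 95% interval 0.05 to 0.93, adjusted p = 0.343). SCPL34 had 311.6 and 265.2 in jaw-D, against 254.5 and 186.9 in Columbia, and a difference of 0.37 that ran from 0.17 to 0.58 when 1 array was left out. SCPL50 had 153.8 and 178.5 in jaw-D, against 121.4 and 142.0 in Columbia, and a difference of 0.30. All 5 of these bright genes had jaw-D arrays above Columbia arrays, yet none passed over all probe sets, and the gap between genotypes in SCPL34 was narrow beside the spread of its replicates.

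The bright genes that were lower on both jaw-D arrays, besides SCPL46, were SCPL20 and SCPL45. SCPL20 read 325.6 and 292.6 in jaw-D, against 439.8 and 382.2 in Columbia, a log2 difference of -0.39, for which limma gave an adjusted p of 0.387. SCPL45 read 158.6 and 178.2 in jaw-D, against 182.9 and 182.7 in Columbia, a difference of -0.11 that was under its SE of 0.15. After SCPL46, the next largest difference of a bright SCPL gene in size was the 0.60 of SCPL25.

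The remaining bright genes overlapped between genotypes. SCPL42 read 305.2 and 351.3 in jaw-D, against 315.4 and 334.4 in Columbia, and SCPL26 read 567.4 and 625.3 in jaw-D, against 598.6 and 563.3 in Columbia. SCPL29 had 547.9 and 492.5 in jaw-D, against 524.7 and 454.7 in Columbia. Their differences were 0.01, 0.04 and 0.09, and their 95% intervals all lay between -0.37 and 0.48, so a change past 1 in size was outside the interval for each. In SCPL35 the jaw-D arrays disagreed, at 371.6 and 532.5, against 370.4 and 377.3 in Columbia. Its difference of 0.24 became -0.01 without jaw-D array 2.

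**Figure D3:**
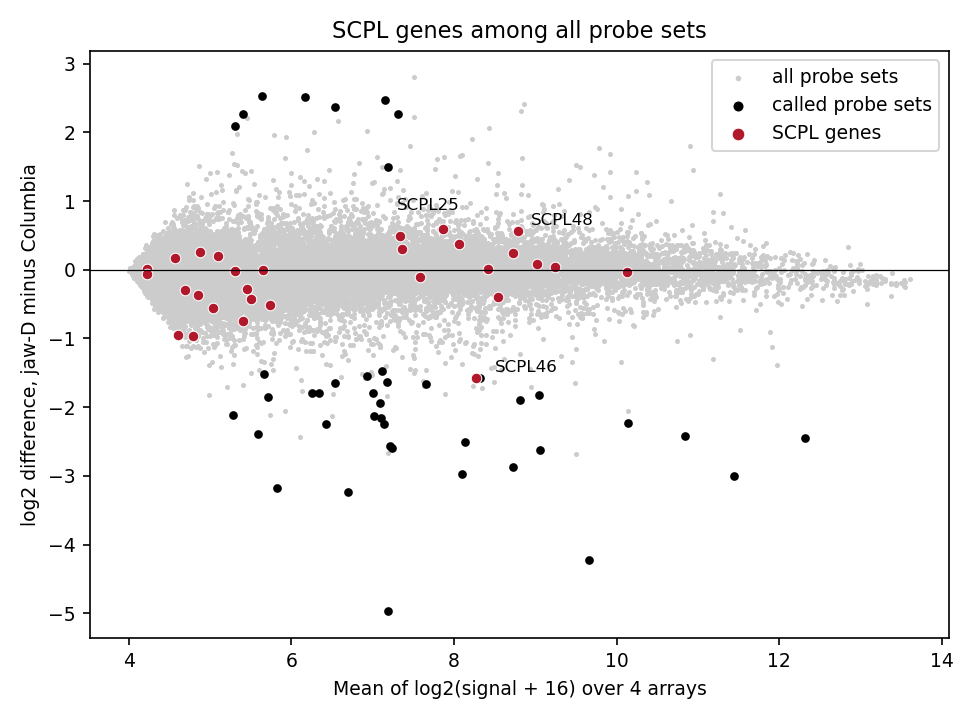
Log2 difference, jaw-D minus Columbia, against the mean of log2(signal + 16) over the 4 arrays, for all 22746 probe sets (grey), the 43 called ones (black) and the 29 SCPL genes (red). SCPL46 at -1.57 lies among the called falls, while the other SCPL genes lie between -0.96 and 0.60.

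Among the dim genes, SCPL22, SCPL16 and SCPL21 had the lowest differences. SCPL22 (AT2G24000) read 1.4 and 6.7 in jaw-D, against 22.9 and 22.3 in Columbia, a log2 difference of -0.96 (SE 0.18, 95% interval -1.41 to -0.51, adjusted p = 0.157 by limma). SCPL16 (AT3G12220) read 0.6 and 2.4 in jaw-D, against 14.8 and 21.1 in Columbia, a difference of -0.95 (SE 0.17, 95% interval -1.37 to -0.54, adjusted p = 0.143). Both genes were near the bottom of the range of signals in jaw-D and only modestly above it in Columbia.

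The size of such differences depends on the pseudocount. A pseudocount of 1 gave -2.46 for SCPL22 and -3.00 for SCPL16, whereas 64 gave -0.35 and -0.32. SCPL16 lies next to SCPL14 and within 2 places of SCPL15 and SCPL17 in the reference gene order, and SCPL17 is known as an acyltransferase that decorates seed glucosinolates. Those 3 neighbours had no probe set paired with exactly 1 gene. SCPL18, the other gene here with a number under 20, was dim and overlapped, at 12.0 and 20.8 in jaw-D against 5.2 and 18.3 in Columbia.

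SCPL21 (AT3G25420) read 21.5 and 12.8 in jaw-D, against 38.0 and 39.9 in Columbia, a log2 difference of -0.74 (SE 0.18, 95% interval -1.19 to -0.29, adjusted p = 0.224). A pseudocount of 1 gave -1.18 and one of 64 gave -0.35. SCPL28 read 14.0 and 8.3 in jaw-D, against 30.4 and 17.8 in Columbia, with a difference of -0.55 that lay between -0.78 and -0.32 when 1 array was left out. The lower Columbia array of SCPL28 was close to the higher jaw-D array.

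SCPL43 read 25.1 and 32.6 in jaw-D, against 42.9 and 52.7 in Columbia, a difference of -0.51. SCPL30 read 22.7 and 23.3 in jaw-D, against 39.5 and 33.5 in Columbia, a difference of -0.43. Neither passed, with adjusted p of 0.316 and 0.331 by limma, but the genotypes did not overlap in either gene. SCPL31 had 10.9 and 8.1 in jaw-D, against 12.9 and 21.4 in Columbia, a difference of -0.37 that ran from -0.55 to -0.18 when 1 array was left out. SCPL38 had 2.1 and 2.3 in jaw-D, against 3.2 and 2.9 in Columbia. The signals of SCPL38 are so low on every array that its difference of -0.07 has no interpretable size.

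Low signals were more frequent on the jaw-D arrays throughout the table, as the shares under 16 show, and 66.2% of dim probe sets had a negative difference. After quantile normalization the median difference of dim probe sets was -0.01 and that of the 16 dim SCPL genes was -0.14. Both jaw-D arrays were then the lower ones in 7 of the 16 dim SCPL genes (background 20.4% of dim probe sets), which were SCPL22, SCPL16, SCPL21, SCPL43, SCPL30, SCPL47 and SCPL38. Their differences then ran from -0.86 in SCPL16 to -0.01 in SCPL38. Both jaw-D arrays were the higher ones in 1 dim SCPL gene after this step. The share of dim probe sets higher in jaw-D was not counted then.

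The last dim genes overlapped between genotypes. SCPL44 had 32.7 and 35.9 in jaw-D, against 23.1 and 48.7 in Columbia, the widest gap between Columbia replicates in the family on the log2(signal + 16) scale. SCPL33 had 26.4 and 20.3 in jaw-D, against 32.0 and 16.8 in Columbia, and SCPL23 had 11.5 and 3.7 in jaw-D, against 16.6 and 8.9 in Columbia. For SCPL32, SCPL40 and SCPL41 the signals lay between 2.2 and 26.1 in jaw-D and between 1.7 and 18.5 in Columbia. SCPL41 has been linked to membrane lipid metabolism, and its signal stayed at or under 3.3 on all 4 arrays. Differences of the 7 overlapping dim genes lay between -0.29 for SCPL23 and 0.25 for SCPL18.

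**Figure D4:**
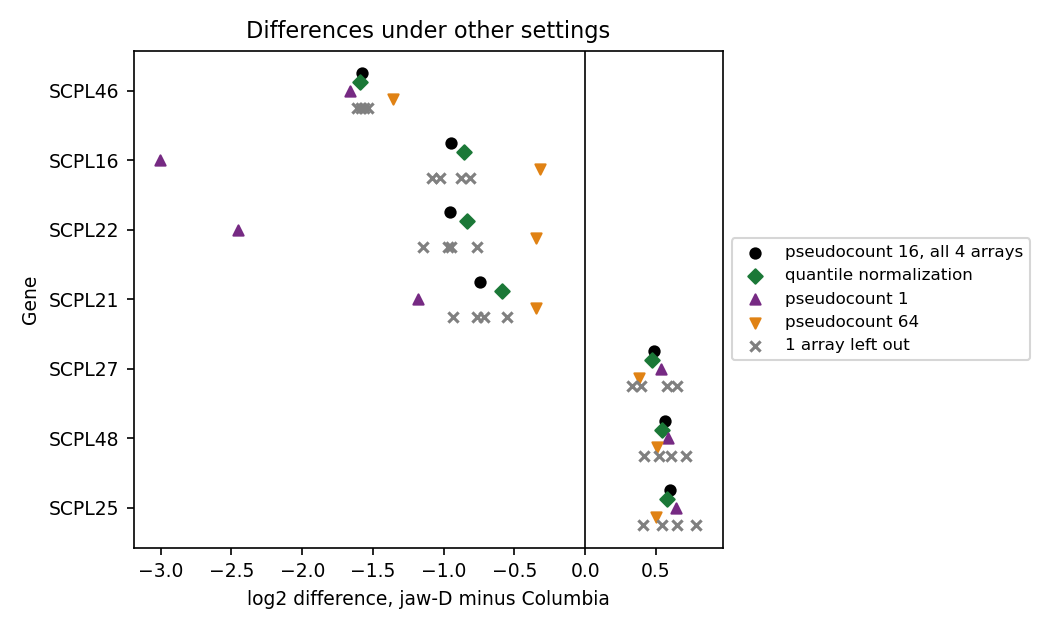
Log2 difference, jaw-D minus Columbia, of SCPL46 and of 3 dim and 3 bright SCPL genes with the next largest differences of their class, with a pseudocount of 16, quantile normalization, pseudocounts of 1 and 64, and with each array left out in turn. SCPL46 stays between -1.66 and -1.36, SCPL16 ranges from -3.00 to -0.32, and SCPL25, SCPL48 and SCPL27 stay between 0.33 and 0.79.

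Of the 12 bright genes that did not pass, 11 had a 95% interval wholly between -1 and 1, and the exception was SCPL25. The intervals reached 0.36 to 0.51 to either side over the bright genes. For the dim genes the pseudocount of 16 holds the difference down, so their intervals do not limit the change of the transcript. The smallest difference called over all probe sets was 1.48 in size.

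Some of the genes lie close together. SCPL22 and SCPL23 are direct neighbours in the reference gene order, with differences of -0.96 and -0.29, and SCPL22 alone kept the genotypes apart. SCPL28 and SCPL26 are also direct neighbours, and their differences were -0.55 and 0.04. SCPL41 and SCPL42 lie 3 places apart, with 0.0040 and 0.01. The differences within these pairs were not tested.

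The genes of 4 related lists were read in the same fit. They held 71 genes, of which 21 were measured, and limma called 0 of them, with 7 at an unadjusted p under 0.05. Of these 7, BRL1 and DELTA-VPE were lower in jaw-D and the others were higher. The shares over all probe sets at that threshold were 8.47% lower and 4.53% higher. In sinapate ester and phenylpropanoid synthesis, the route that supplies the acyl donors of SCPL acyltransferases, 6 of 25 genes were measured, 0 rose and 0 fell by the test, and the median difference was 0.12. ALDH2C4, an aldehyde dehydrogenase that makes sinapate and ferulate, read 1342.5 and 1621.5 in jaw-D, against 1075.8 and 1038.6 in Columbia, a difference of 0.48 with an adjusted p of 0.322. UGT84A4, a glucosyltransferase gene of the family that makes phenylpropanoid glucose esters, had 0.37, and CCR2, a cinnamoyl-CoA reductase gene, had 0.19 at signals of at most 8.0. With 1 array left out, UGT84A4 ran from 0.086 to 0.66 and CCR2 from 0.035 to 0.35.

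In anthocyanin decoration, where family acyltransferases add sinapate, 4 of 7 genes were measured, and all 4 were higher on both jaw-D arrays (background 17.5%), with a median of 0.85 and 0 called. 5MAT, which encodes the malonyltransferase of anthocyanins, read 37.0 and 39.9 in jaw-D, against 16.7 and 23.2 in Columbia, a difference of 0.60 with an adjusted p of 0.252. UF3GT and UGT75C1, glycosyltransferase genes, had 1.09 and 1.21, with adjusted p of 0.136 and 0.281 by limma. UGT75C1 read 61.5 and 33.6 in jaw-D, against 20.9 and 3.6 in Columbia. Its difference ran from 0.75 to 1.66 with 1 array left out. UF3GT, UGT75C1 and 5MAT were dim, and the size of their differences depended on the pseudocount. A pseudocount of 1 gave 1.43 for UF3GT, 2.21 for UGT75C1 and 0.93 for 5MAT, whereas 64 gave 0.63, 0.55 and 0.29.

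Of 17 brassinosteroid genes 1 was measured, BRL1, a receptor gene related to BRI1, at 14.9 and 17.5 in jaw-D against 32.5 and 23.8 in Columbia, a difference of -0.45 with an adjusted p of 0.355. Of 22 other vacuolar and secreted proteases 10 were measured and 0 were called, with a median of -0.02. DELTA-VPE, a vacuolar processing enzyme gene, had -0.61 at signals of 16.9 and 9.4 in jaw-D against 30.0 and 26.2 in Columbia. ARA12, a subtilisin-like protease gene, had 996.0 and 1193.3 in jaw-D, against 842.7 and 744.6 in Columbia, and a difference of 0.45. APA2, an aspartic protease gene, had 0.31, which ran from 0.11 to 0.50 with 1 array left out. DELTA-VPE had the largest difference in size of the 10.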

How the data were processed

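RNA of 4 leaf samples was measured on single-colour arrays, 2 of jaw-D and 2 of Columbia, grouped by their descriptions and numbered in accession order. The deposited table holds 1 intensity per probe set and array, which its values show to be linear. Each array's mean after trimming 2% at each end was 200.0, so the authors had already scaled the arrays. The summary software is not given in the sources used here, and there are no detection calls.

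After 64 control rows were left out, 22746 probe sets remained, of which 13513 were paired with 1 gene. Log2(signal + 16) was fitted by limma 3.58.1 (lmFit, eBayes) under R 4.3.3 (2 residual and 3.76 prior degrees of freedom, two-sided, Benjamini-Hochberg). The fit was tested on simulated data. No further normalization was applied. No exact permutation test is given, since with 2 arrays a side its smallest p is 0.333. The number of arrays limits the precision. The labels do not say whether replicates are separate plants or extractions, so the spread behind the p-values is that between these samples and may be technical. Deviations of arrays with the same number correlated at -0.0743 across probe sets, no sign of pairing.

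All 29 SCPL genes matched a locus of the TAIR10.1 reference by gene identifier, used for names and gene order only. The genes named are all 29, and up to 3 members of each related list with the smallest unadjusted p. The members and lists were chosen with earlier results of these data known. Alternatives were median centring, quantile normalization, 2 filters on low signals, pseudocounts of 1 and 64, trended and robust moderation, a replicate block, and leaving out each array. Figures were drawn with matplotlib 3.10.9.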

Additional observations from a re-analysis of the deposited data

How the results depend on the processing

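Over 13 alternatives, 18 of the 29 SCPL genes kept their sign wherever they were tested, SCPL46 and the 12 other lowest and 5 highest of them. The 2 filters, the trended and robust moderation and the replicate block leave the difference itself unchanged. Only the other alternatives could therefore turn a sign. The share of all probe sets that kept their sign was not counted. Testing only the brighter probe sets turned the 43 calls into 291 (median mean signal or more) and 224 (25th percentile or more), an intensity trend into 103 and the replicate block into 66. A pseudocount of 1 gave 0 calls by limma and 2538 at an unadjusted p under 0.05. Without 1 array the count ran from 0 to 0, with 1978 to 2492 at an unadjusted p under 0.05. The residual degrees of freedom are then 1 in place of 2, and the lone array is assumed to vary like the other genotype. SCPL46 stayed the 1 called SCPL gene except with a pseudocount of 1 (0 called, difference -1.66, adjusted p 0.214) and without 1 array (0 to 0 called, 6 to 8 at an unadjusted p under 0.05). The replicate block changed no call of an SCPL or related gene. Of the related genes, 1 was called at or above the 25th percentile, UF3GT (1.09, adjusted p 0.0388). The cause of the changes under the trend, the block and the pseudocount was not tested.

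The signs that turned were all of small, uncalled differences. SCPL33 had 0.15 with quantile normalization and 0.0052 with median centring, and SCPL44 had 0.13 and 0.021 there and 0.027 with a pseudocount of 1. Without 1 array, SCPL33 ran from -0.29 to 0.26, SCPL44 from -0.36 to 0.36, SCPL49 from -0.11 to 0.048, SCPL41 from -0.042 to 0.050, SCPL42 from -0.085 to 0.11, SCPL26 from -0.032 to 0.10, SCPL29 from -0.014 to 0.19, SCPL40 from -0.16 to 0.51, SCPL32 from -0.012 to 0.40, SCPL35 from -0.0083 to 0.49 and SCPL18 from -0.10 to 0.60. Taking the mean of a gene's probe sets, or only the design for a single transcript, could not differ, because each of the 29 genes had 1 probe set of that design. With quantile normalization, chosen after seeing the data for this count, genotypes were apart in 10 SCPL genes lower in jaw-D, in place of 12, and in 6 higher, in place of 5. The shares over all probe sets were not counted after that step, so these counts have no background. Only dim probe sets lower in jaw-D were counted then, at 20.4%.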
